A study of Mus musculus with 4 samples.

Results

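The 7 genes that write, copy and erase DNA methylation in the mouse (Dnmt1, Dnmt3a, Dnmt3b, Uhrf1, Tet1, Tet2 and Tet3) were examined in 4 CUT&RUN peak lists of medullary thymic epithelial cells. Peaks were assigned to a gene when the midpoint of the peak lay inside the gene's RefSeq interval or within 5 kb of it, on the mm10 assembly. All 7 genes were matched among 21631 protein-coding genes, and 134 peaks fell in their windows: 36 of 89809 in mTEClo replicate 1, 29 of 69359 in mTEClo replicate 2, 25 of 73510 in mTEChi replicate 1 and 44 of 85308 in mTEChi replicate 2. In CUT&RUN a nuclease tethered by an antibody cuts out short pieces of chromatin around the bound protein, and these are sequenced. Both groups were EpCAM+ cells sorted from thymi of wild-type (Trp53-WT) mice 4 to 5 weeks old, 500000 cells per condition, untreated as far as the labels say. The lo and hi of these names usually refer to surface MHC class II, and Aire is expressed by cells within the mTEChi pool. Titles give the target as p53 whereas the protocol gives anti-BAF155 (a subunit of SWI/SNF chromatin remodellers), so whether the peaks mark p53 or BAF155 cannot be told apart.

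In mammalian cells methyl groups sit mainly on the cytosine of CpG dinucleotides. DNMT3A and DNMT3B add them to unmethylated DNA, while UHRF1 recognises CpGs that carry the mark on a single strand after replication and brings in DNMT1, which copies it to the new strand. TET1, TET2 and TET3 oxidise methylcytosine, a step towards its removal by dilution or by base excision repair. In medullary thymic epithelium the AIRE protein, which promotes expression of tissue-restricted self-antigens, is known to bind a complex with MBD1, a reader of methylated CpGs.

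The plainest signal of the group stood at the start of Dnmt1, where the 4 summits lay within 27 bp of each other. Dnmt1 (gene ID 13433) lies on the minus strand of chromosome 9, from 20907206 to 20959888. RefSeq (GRCm38.p6) lists starts for it at 20959888, 20952979 and 20952623. The core palindrome of the sequence that the transcription factor NRF1 is known to bind occurs a single time at each of the latter pair. It is shown in capitals within 30 bases of reference sequence, because the summits of all 4 libraries lay within 14 bp of the centre of the first of these 2 sites.
Dnmt1 site at the start 20952979 (chr9:20952931-20952960, minus strand): cctccgttgcGCGCATGCGCactcccttcg
Dnmt1 site at the start 20952623 (chr9:20952590-20952619, minus strand): cagccagggcGCGCATGCGCggggcagcgt
The summit of mTEClo replicate 1 was at 20952958, that of mTEClo replicate 2 at 20952931, that of mTEChi replicate 1 at 20952944 and that of mTEChi replicate 2 at 20952931. They stood 13, 14, 1 and 14 bp from the centre of the first site, in the same order, and 354, 327, 340 and 327 bp from the centre of the second. The summit of mTEChi replicate 1 fell on the capitals of the first site and the other 3 beside them. mTEChi replicate 2 also had a summit 27 bp after the start at 20959888, where no other library had one within 500 bp.

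Windows that hold this NRF1 core and a summit of every library close to it were few. Over 21045 windows of protein-coding starts (300 bp each, from 250 bp before to 50 bp after a start, 17274 genes), 283 (1.34%) held the core, which reads the same on both strands. In 3 of the 283 (1.06%), the Dnmt1 window included, a summit of every library lay within 25 bp of the letters; that distance was chosen after the Dnmt1 summits were seen. In 200 of them (70.7%) no library had a summit that close. A summit within 500 bp of the start in all 4 libraries was found for 26.1% of windows with the letters and 13.8% of windows without. A match of letters describes the reference sequence and does not show which factor was bound.

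Summits near an annotated start were also found at Uhrf1, Tet2 and Tet3, each in 3 of the 4 libraries. Not all of these peaks were strong. Of the peaks in their lists, 85.2% scored higher than the Uhrf1 peak of mTEClo replicate 2 and 82.6% higher than the Tet2 peak of mTEClo replicate 1. A gene was counted where a summit lay within 500 bp of any of its RefSeq starts. On this count 4 of the 7 genes had one in 3 or 4 libraries, against 26.5% of 17274 protein-coding genes. Dnmt1 alone had one in all 4, against 15.5%. The 7 genes have 12 such starts and the 17274 genes 21045, and more starts give a gene more chances to be counted. By library the count was 7 of 7 in mTEClo replicate 1 (41.7% of all genes), 3 in mTEClo replicate 2 (29.9%), 2 in mTEChi replicate 1 (33.5%) and 4 in mTEChi replicate 2 (30.6%). Dnmt3a, Dnmt3b and Tet1 had such a summit in mTEClo replicate 1 and in no other library. No member had one in both libraries of a state and in neither of the other state (3.48% of all genes for mTEClo, 1.58% for mTEChi).

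**Figure D1:**
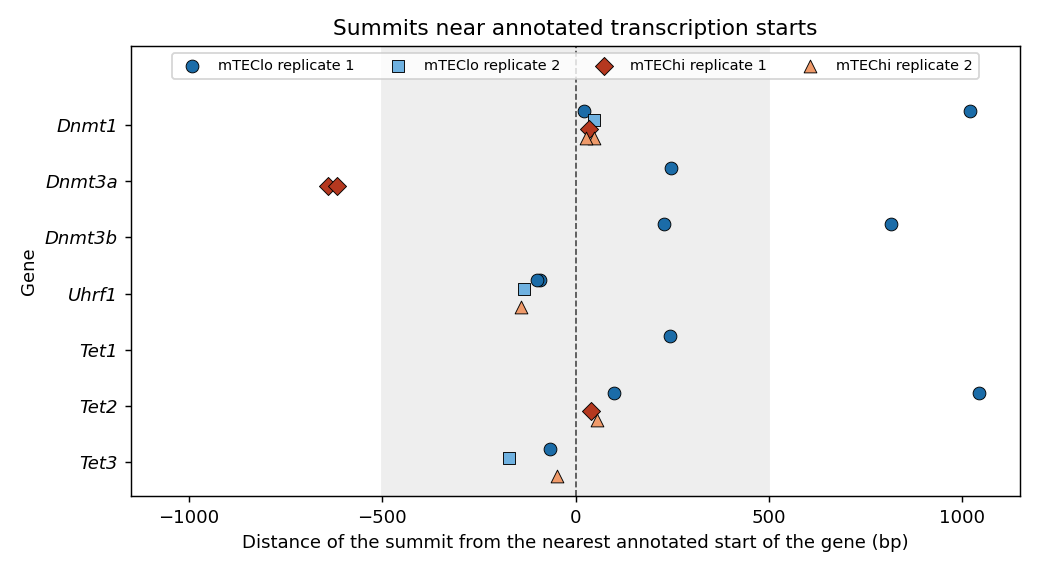
Distance in bp of each peak summit from the nearest RefSeq start of its gene (horizontal axis, positive in the direction of transcription) for the 7 genes, 1 symbol per peak and library; the grey band marks 500 bp to each side. Dnmt1 has summits of all 4 libraries 21 to 48 bp after a start, and Dnmt3a, Dnmt3b and Tet1 have only mTEClo replicate 1 inside the band.

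The upstream sequences of these 3 starts are shown because the shared summits fall in or just beyond them. Each runs from 250 bases before the start to the base before it, 5′ to 3′ along the gene's strand (RefSeq, GRCm38.p6). Capitals mark CCAAT and GGGCGG on either strand in Uhrf1 and Tet3, and every CpG in Tet2.
Uhrf1 (chr17:56304063-56304312, plus strand): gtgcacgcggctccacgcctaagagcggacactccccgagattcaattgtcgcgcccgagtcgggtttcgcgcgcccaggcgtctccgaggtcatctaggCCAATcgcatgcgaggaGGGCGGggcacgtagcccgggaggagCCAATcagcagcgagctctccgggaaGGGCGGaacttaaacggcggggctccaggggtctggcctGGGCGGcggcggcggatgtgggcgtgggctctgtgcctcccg
Tet2 (chr3:133544391-133544640, minus strand): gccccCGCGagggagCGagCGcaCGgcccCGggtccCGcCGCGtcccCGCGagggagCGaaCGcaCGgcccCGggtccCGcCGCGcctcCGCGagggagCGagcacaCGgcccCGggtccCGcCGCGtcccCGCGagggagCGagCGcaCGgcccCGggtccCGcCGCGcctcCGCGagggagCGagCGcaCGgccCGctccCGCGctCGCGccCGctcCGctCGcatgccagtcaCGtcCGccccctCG
Tet3 (chr6:83441679-83441928, minus strand): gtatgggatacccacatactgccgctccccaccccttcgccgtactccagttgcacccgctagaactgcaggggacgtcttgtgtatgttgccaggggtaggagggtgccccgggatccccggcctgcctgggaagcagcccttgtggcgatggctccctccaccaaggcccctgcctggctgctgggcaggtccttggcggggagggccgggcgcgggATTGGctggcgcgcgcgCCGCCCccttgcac
At Uhrf1 the start at 56304313 had summits at 56304213 in mTEClo replicate 1, 56304179 in mTEClo replicate 2 and 56304173 in mTEChi replicate 2, that is 100 to 140 bp before it. The printed stretch holds 2 CCAAT and 3 GGGCGG, and the nearest CCAAT was not the same for all summits. That of mTEClo replicate 1 lay 5 bp from the centre of the CCAAT at 56304208. Those of mTEClo replicate 2 and mTEChi replicate 2 lay 14 and 8 bp from the centre of the other, at 56304165. The summits lay 30, 4 and 10 bp from the centre of the GGGCGG at 56304183, in the order given above. At Tet2 the start at 133544390 had summits 99 bp after it in mTEClo replicate 1, 39 bp after it in mTEChi replicate 1 and 56 bp after it in mTEChi replicate 2. At Tet3 the start at 83441678 had summits 48 to 172 bp before it, at 83441744 in mTEClo replicate 1, at 83441850 in mTEClo replicate 2 and at 83441726 in mTEChi replicate 2. The same Tet3 region lay 11 to 95 bp from the start of the lncRNA B230319C09Rik on the opposite strand (83441755), so the 2 starts cannot be told apart as its place.

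Windows rich in CpG were found both with and without shared summits. The Tet2 window held 57 CpGs in 300 bp, more than in 99.8% of all windows, and the Uhrf1 window at 56304313 held 33, the Tet3 window 22 and the Dnmt1 window at 20952979 12. The Dnmt3a windows at 3806980 and 3807160 held 46 and 47, with no summit of any library within 500 bp, and the Dnmt3b window held 30. The median over all windows was 13. Of 12 member windows, 10 held GGGCGG (46.7% of all windows) and 5 held CCAAT (38.5%). The 12 windows belong to 7 genes and are not independent. The Dnmt3a windows at 3806980 and 3807160 overlap and share GGGCGG matches, and the windows with CCAAT were at Dnmt1, Uhrf1 and Tet3 alone. None held a match to the p53 decamer, the repeated unit of the p53 response element (7.37% of all windows), nor to TGANTCA (7.04%), TGACGTCA (2.26%), CCGGAAGT (5.2%) or TTTCCCGC (1.42%), and TTTGGCGC (0.641%) occurred in 1. All motifs were searched on both strands, and a TGACGTCA match does not hold TGANTCA.

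Over the group as a whole, the number of peaks relative to the length of the list did not differ between mTEClo and mTEChi beyond the spread of the libraries. Of every 10000 peaks of a list, members took 4.01 (mTEClo replicate 1), 4.18 (mTEClo replicate 2), 3.40 (mTEChi replicate 1) and 5.16 (mTEChi replicate 2). The mTEChi libraries were thus the lowest and the highest of the 4, and the mTEClo libraries lay between them. The means were 4.09 ± 0.122 (SD, n = 2) and 4.28 ± 1.24 (SD, n = 2), a difference of 0.185 that was smaller than the spread between the mTEChi libraries (two-sided exact permutation test over libraries, p = 1). This test of 2 libraries against 2 cannot go below 0.333 and so cannot pass 0.05. No label ties a replicate to its own mouse, and the p-values measure only a spread between libraries that may be technical. The difference turned to -0.694 without mTEChi replicate 2.

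At least 1 peak was present in 7 of 7 members in mTEClo replicate 1, mTEChi replicate 1 and mTEChi replicate 2 and in 6 in mTEClo replicate 2, where 75.5%, 69.3%, 73% and 68.8% of all protein-coding genes had one. All 4 libraries called 6 members (51.9% of all genes), and no member was called in mTEClo alone (both libraries of that state and none of the other, 2.14%) or in mTEChi alone (1.67%). The members are long genes, with a median of 81.5 kb against 17.3 kb for all protein-coding genes, and a long window collects more peaks. Per 100 kb of window, members against all protein-coding windows held 6.51 against 4.90 peaks (mTEClo replicate 1), 5.24 against 3.73 (mTEClo replicate 2), 4.52 against 3.91 (mTEChi replicate 1) and 7.95 against 4.52 (mTEChi replicate 2). Summed over the members, the density was above that of all windows in each library. By gene, as the mean of the 4 libraries, it was 12.4 at Uhrf1, 9.57 at Dnmt1, 6.68 at Tet3 and 6.31 at Dnmt3a. At Tet2 (4.10), Tet1 (4.04) and Dnmt3b (3.10) it was below the 4.26 of all protein-coding windows.

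**Figure D2:**
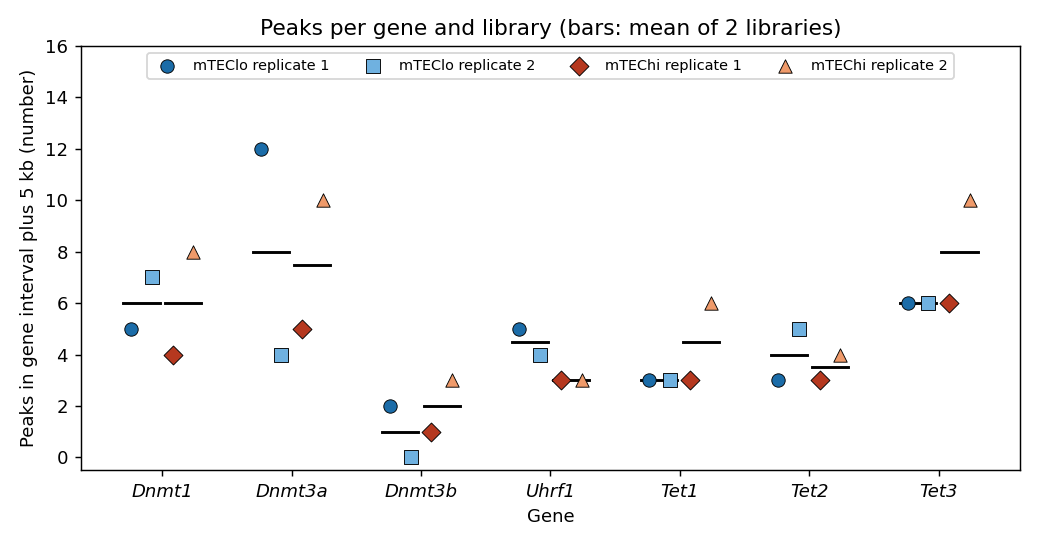
Number of peaks (vertical axis) in each gene interval plus 5 kb for the 7 genes, 1 symbol per library and a bar at the mean of the 2 libraries of a state. Only Uhrf1 has groups that do not overlap (5 and 4 in mTEClo, 3 and 3 in mTEChi), and mTEClo replicate 2 has 0 at Dnmt3b.

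Among the writers, Dnmt1, the maintenance methyltransferase, had 5 and 7 peaks in its mTEClo libraries and 4 and 8 in its mTEChi libraries, replicate 1 first. Its groups overlapped and their means were equal at 6. Apart from the start, Dnmt1 had a cluster of 9 peaks inside the gene between 20943474 and 20945074, 7549 to 9149 bp after the start at 20952623, with 2, 3, 2 and 2 peaks in the 4 libraries in the same order. The cluster merged into 3 regions, of which the one with summits from 20944829 to 20945074 held all 4 libraries. Its mTEChi replicate 2 peak was weak, with a score of 2.19, and 94.0% of the peaks of that list scored higher. Exon and intron boundaries were not used here, so the cluster is placed only by its distance from the start.

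Uhrf1, which guides DNMT1 to newly replicated DNA, had the highest density of the 7, 12.4 peaks per 100 kb of window as the mean of the 4 libraries. It lies on the plus strand of chromosome 17 from 56303337 to 56323486 (gene ID 18140). Its counts were 5 and 4 in mTEClo and 3 and 3 in mTEChi, a difference of -1.50 for mTEChi minus mTEClo (two-sided exact permutation test, p = 0.333). It was the 1 member whose counts did not overlap between the states, and 9.27% of all protein-coding genes had counts higher in mTEClo in the same way (8.4% higher in mTEChi). The difference fell to -0.50 within the gene interval alone and was 0.50 among the 10000 highest peaks of each list. A region inside the gene, 3911 to 4040 bp after the start at 56304313, had summits at 56308224 in mTEClo replicate 1, 56308238 in mTEChi replicate 1 and 56308353 in mTEChi replicate 2.

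The strongest Uhrf1 peaks lay closer to another gene than to Uhrf1. All 4 libraries had their best Uhrf1 peak between 56325769 and 56325841, 2283 to 2355 bp beyond the end of Uhrf1 and 129 to 201 bp from the lower coordinate of Kdm4b (chromosome 17, 56325970 to 56403774), a histone demethylase gene. Its scores were 13.4 (mTEClo replicate 1), 6.004 (mTEClo replicate 2), 30.5 (mTEChi replicate 1) and 13.6 (mTEChi replicate 2). The score is the authors' value per peak and ranks peaks within its own list only.

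Neither of the de novo methyltransferases had a region shared by more than 2 libraries, and Tet1 had none either. Such regions were uncommon, 8 of 106 over the members and 9801 of 149140 over all protein-coding windows. Dnmt3a (gene ID 13435, chromosome 12, plus strand, 3801559 to 3914443) had 12 and 4 peaks in mTEClo and 5 and 10 in mTEChi, so its libraries differed more within a state than the means of the states (8 and 7.50). Of its 28 regions 3 held 2 libraries, and 1 of these, with summits at 3871331 and 3871399, was found in mTEChi alone. The lncRNA genes Dnmt3aos and Gm31623 lie inside the Dnmt3a interval, and the third shared region (3887607 to 3887800) lay inside Gm31623. Dnmt3b (gene ID 13436, chromosome 2, plus strand, 153649411 to 153687730) had the fewest peaks, 2 and 0 in mTEClo and 1 and 3 in mTEChi. Its single shared region was in both mTEChi libraries, with summits at 153657085 and 153656951, 7502 to 7636 bp after the start, and its mTEClo replicate 1 peaks lay 228 and 816 bp after the start.

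Among the erasers, regions with peaks of 2 or more libraries made up 15.4% of the regions of Tet1, 16.7% of those of Tet2 and 8% of those of Tet3. Tet1 (gene ID 52463, chromosome 10, minus strand, 62804570 to 62887469) had 3 and 3 peaks in mTEClo and 3 and 6 in mTEChi, Tet2 (gene ID 214133, chromosome 3, minus strand, 133463677 to 133545136) 3 and 5 against 3 and 4, and Tet3 (gene ID 194388, chromosome 6, minus strand, 83362373 to 83457208) 6 and 6 against 6 and 10. The states overlapped at each of the 3 (two-sided exact permutation test, p = 1 for each). At Tet1 a region with summits at 62865379 and 62865407 was in both mTEClo libraries alone, 263 to 291 bp from the lower coordinate of the lncRNA Gm51805, and a region at 62884016 and 62884109 was in both mTEChi libraries alone. At Tet2 the region in both mTEChi libraries alone had summits at 133524593 and 133524663, 19727 to 19797 bp after the start. At Tet3 the region in both mTEClo libraries alone had summits at 83422165 and 83422196, inside the gene.

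**Figure D3:**
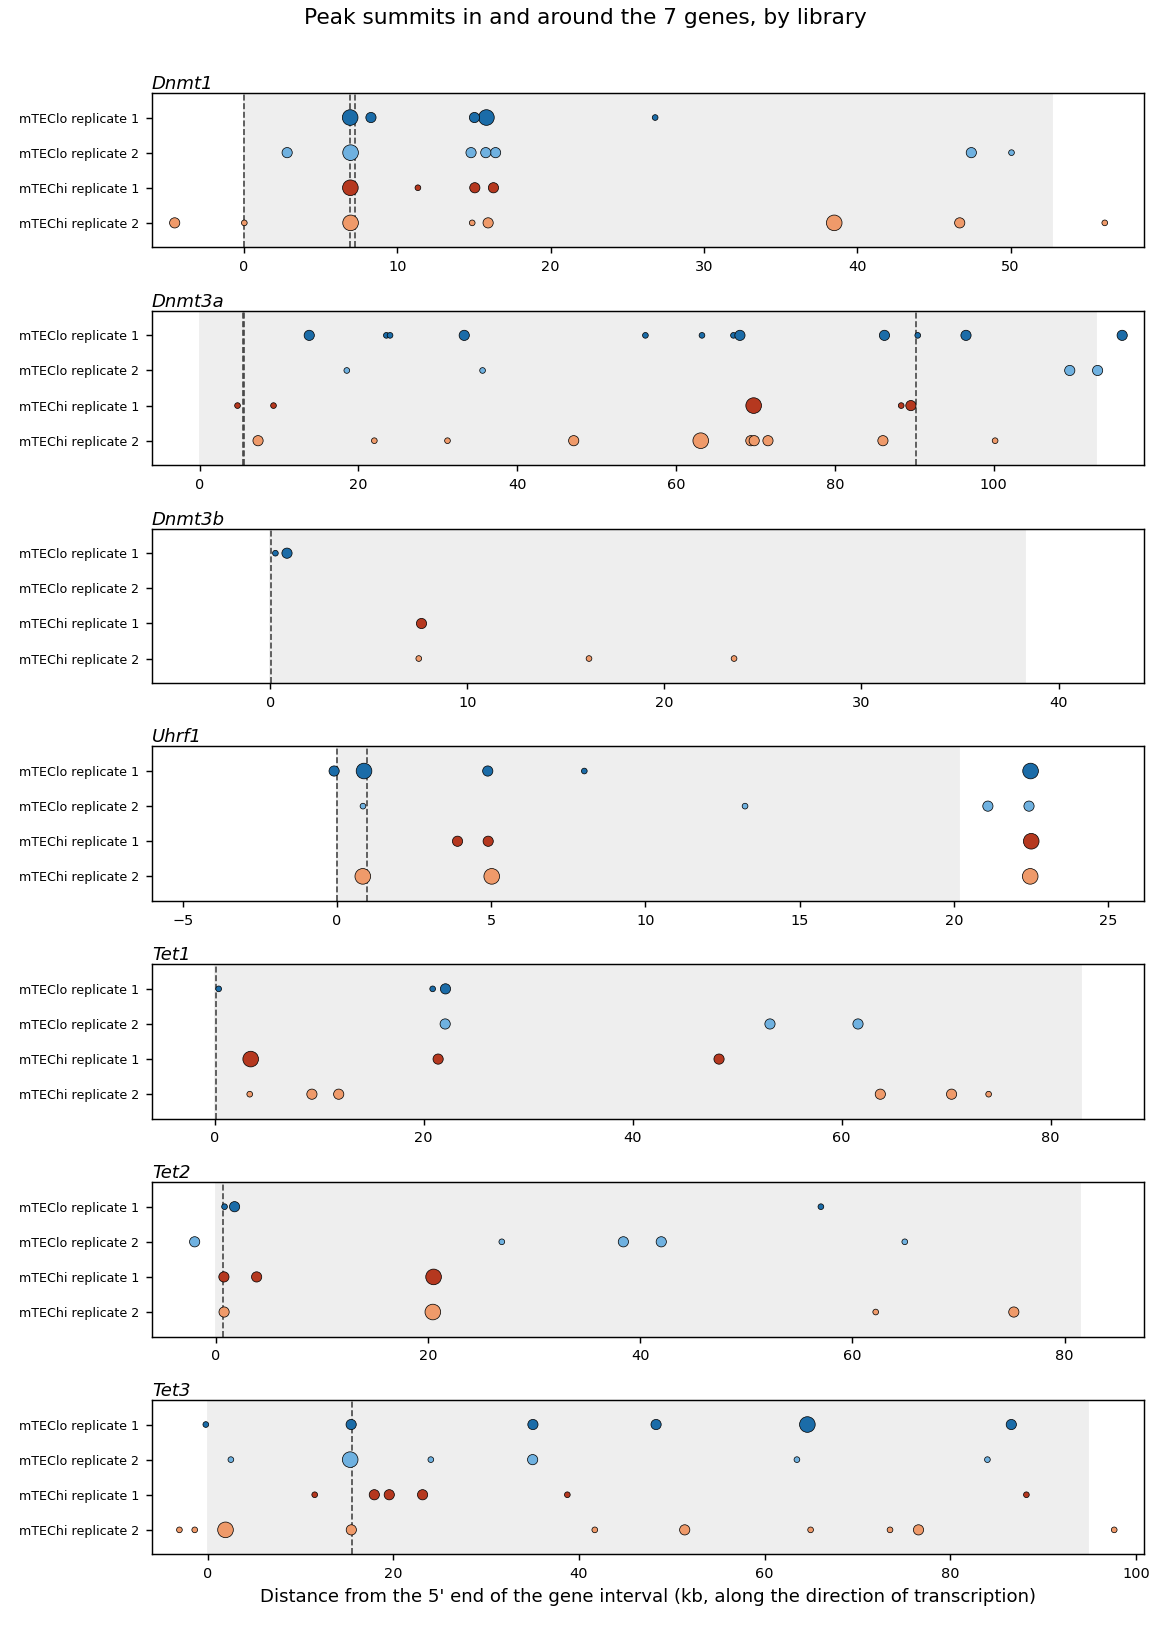
Peak summits along each gene, 1 row per library; the horizontal axis is the distance in kb from the 5′ end of the gene interval (grey) in the direction of transcription, and dashed lines mark RefSeq starts. Large, middle and small circles are peaks in the highest 10 percent of their list, in the next 40 percent and in the lower 50; Dnmt1 shows a large circle at a start in every library.

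Over the 7 genes 106 merged regions were found (overlap of at least 1 bp), 17 of them with peaks of 2 or more libraries (16%) and 3 with all 4 (2.83%). In all protein-coding windows these shares were 17.4% and 2.84%, so the members were near the background. The 3 regions in all 4 libraries were the Dnmt1 start, the region inside Dnmt1 and the region near Kdm4b. Regions in all 4 libraries numbered 2 among peaks above the median score, and 2 where summits had to lie within 75 bp. Regions of both mTEClo libraries alone numbered 2 (3.03% of the regions of all protein-coding windows) and those of both mTEChi libraries alone 4 (2.04%), at Dnmt3a, Dnmt3b, Tet1 and Tet2. Where summits had to lie within 75 bp of each other these numbers were 3 for mTEClo and 2 for mTEChi, the opposite order.

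The place of the best peak within its list, given as the percent of peaks of that list that score higher (ties at their middle), was highest over the 4 libraries for Dnmt1 and Uhrf1, and lowest for Dnmt3b, which lacked a peak in 1 of them. The best Dnmt1 peak stood at 1.87%, 1.30%, 4.22% and 7.27% of the lists of mTEClo replicate 1, mTEClo replicate 2, mTEChi replicate 1 and mTEChi replicate 2. Both mTEClo places were above both mTEChi places. In mTEChi replicate 2 the peak at the start (20952931) had the same score, 6.01, as a second Dnmt1 peak at 20921389. That second peak was found in that library alone, 31234 bp after the start at 20952623. Dnmt1 was the only member in the highest 10% of all 4 lists (9.45% of all genes), and no member was in the highest 5% of all 4 (5.51%). Uhrf1 stood at 1.66%, 11.4%, 0.505% and 0.804% in the same order, with the peaks near Kdm4b, and within its own interval at 8.70%, 73.5%, 14.9% and 5.86%, where the groups overlapped. Tet2 stood at 42.1%, 24.3%, 3.74% and 5.13%, and Dnmt3a at 12.8%, 19.1%, 8.01% and 8.46%. For both genes the mTEChi places were above the mTEClo places. The Dnmt3a order was the same within the gene interval, where the mTEClo places were 31.4% and 48.8%.

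Tet3 stood at 7.67%, 5.01%, 29.1% and 3.21%, and Tet1 at 31.4%, 11.4%, 8.01% and 16.7%, with overlapping groups. Dnmt3b stood at 49.6% in mTEClo replicate 1, 21.9% in mTEChi replicate 1 and 57.8% in mTEChi replicate 2. Of the 6 members with a peak in all 4 libraries, 3 had both mTEChi places above both mTEClo places and 1 the other way, against 20.7% and 17.4% of 11228 such genes. The 3 were Dnmt3a, Uhrf1 and Tet2. The Uhrf1 order came from the peaks near Kdm4b, and within the Uhrf1 interval the groups overlapped. At Dnmt3a the best peaks of the 2 mTEChi libraries lay at different positions in the gene. Places come from lists of different lengths and with many tied scores and are not levels of binding. Among the 10000 highest peaks of each list, Dnmt1 and Uhrf1 had a peak in all 4 libraries (11.3% of all genes). In mTEClo replicate 2 and mTEChi replicate 1 the only such Uhrf1 peak was the one near Kdm4b, at 56325769 and 56325841. Dnmt3a and Tet2 had a peak among the 10000 highest in mTEChi alone (3.13%), and no member had one in mTEClo alone (2.55%). The Dnmt3a peaks lay at different positions, 3871331 in mTEChi replicate 1 and 3864669 in mTEChi replicate 2. The best Dnmt3a peaks of mTEClo replicates 1 and 2 ranked 11503 and 13254, not far below the cut.

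**Figure D4:**
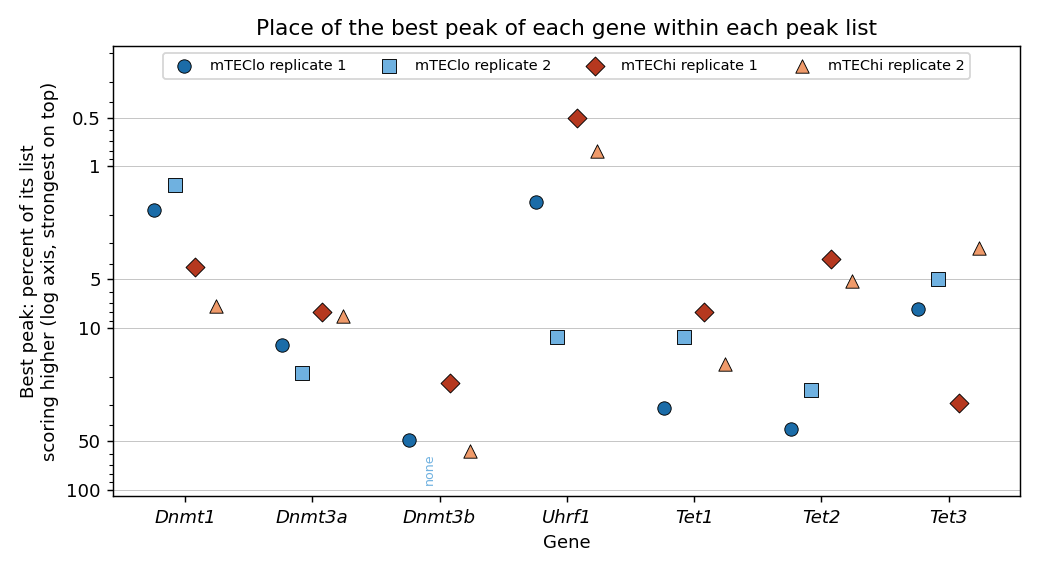
Place of the best peak of each gene in each list, as the percent of the list's peaks that score higher, on a log axis with the strongest on top; 1 symbol per library. The mTEClo symbols stand above the mTEChi symbols at Dnmt1 (1.87 and 1.30 against 4.22 and 7.27) and below them at Dnmt3a, Uhrf1 and Tet2. The Uhrf1 symbols are the peaks near Kdm4b.

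The genes closest to Dnmt1 in the places of their best peaks over the 4 libraries were Ppp1r35, Ptprs and Prdx2. Their places differed from those of Dnmt1 by at most 0.957, 1.02 and 1.11 percentage points in any library, a description over 4 lists.

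Of 37 related genes, linked to reading, copying or opposing the mark or to supplying methyl groups, 22 were called in all 4 libraries (51.9% of all protein-coding genes). The counts by library were 32, 27, 32 and 31 in the order used above, against 75.5%, 68.8%, 69.3% and 73% of all protein-coding genes. The median number of peaks per gene, summed over the libraries, was 7, against 6 for all protein-coding genes and 15 for the members. Among 9 genes of readers of methylated CpGs and of proteins related to them, 6 were called in all 4 libraries. Mbd3, which encodes a subunit of the NuRD complex, had its best peaks at 0.133%, 2.25%, 0.123% and 1.30% of the 4 lists, and Mbd4, a glycosylase gene, at 0.195%, 2.57%, 2.14% and 3.83%.

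Partners of maintenance were called in all 4 libraries in 4 of 5 cases. The share of all genes, for this list and those below, was 51.9%. Among the partners, Pcna, the replication clamp, stood at 0.282%, 5.71%, 3.26% and 4.16%. Lig1, a DNA ligase gene, stood at 9.76%, 7.99%, 9.40% and 40.0%. De novo and imprint cofactors were called in 3 of 8, among them Trim28 (4.04%, 94.9%, 5.49% and 4.30%) and Setd2, a histone methyltransferase gene (82.6%, 79.5%, 29.1% and 3.16%). Demethylation and repair partners were called in 5 of 10, among them Apex1, the abasic site endonuclease gene (2.23%, 16.5%, 0.441% and 0.343%), and Gadd45a (1.58%, 16.5%, 7.51% and 2.08%). Kdm2a (0.664%, 1.00%, 5.54% and 3.30%) and Kdm2b (6.10%, 7.99%, 9.40% and 4.51%), histone demethylases that bind unmethylated CpGs, were called in all 4, as was Ahcy, which clears the product of methyl transfer (31.4%, 48.8%, 51.8% and 40.0%).

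For the whole series, each list held summits with 150 bp on each side and scores from 2.00 upward, and the depth is unknown. No control antibody library was analysed here. All 9 thymic epithelial marker genes had a peak in all 4 libraries, Epcam, Foxn1 and Aire included, as did 4 of 10 thymocyte markers and 3 of 6 fibroblast and endothelial markers (51.9% of all genes). The thymocyte markers called were 9 in mTEClo replicate 1, 10 in mTEClo replicate 2, 5 in mTEChi replicate 1 and 8 in mTEChi replicate 2. Of all protein-coding genes, 75.5%, 68.8%, 69.3% and 73% were called in these libraries, in the same order. Of the thymocyte markers 2, Cd3d and Cd8a, were called in mTEClo alone (2.14% of all genes). A peak is not a measure of expression, and the part of other cells in the members' peaks was not tested. The peak nearest to the outer limit of a window lay 4514 bp from Dnmt1 in mTEChi replicate 2, and the nearest beyond it 5045 bp from Uhrf1 in mTEClo replicate 2.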

How the data were processed

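There was 1 peak list per sample, and titles gave the group and replicate number. Per the submitters' processing notes, the authors used MACS2 2.2.7.1, SAMtools 1.9, Bowtie2 2.2.9 and Picard with mm10; their settings and any control track are not stated. The deposited lists give a summit with 150 bp on each side, per library. The score deposited with each peak by the authors is that of the peak caller; its minimum of 2.00 would fit a −log10 p or q, which was not stated. It was used only to rank or cut peaks within a list, since read counts and depth are unknown.

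Coordinates are written from 1. Genes, starts and sequences came from RefSeq tables of GRCm38.p6; all 7 members matched the promoter table. Exons were not used. Regions were peaks merged over libraries by at least 1 bp. The distances of 500 bp and 25 bp were chosen after the data were seen, and members and lists with earlier results of these data known. Named related genes were, per list, up to 2 called in all 4 libraries with the best worst place and up to 2 called in 1 state alone; 1 related gene is not reported here. States were compared over libraries with an exact permutation test, two-sided. Alternatives were other windows, score cuts, equal lists of 69359 peaks, other overlap limits, each library left out and the replicate number as a block. Counting and merging were tested on simulated data. Python 3.11.15, numpy 2.4.6, pandas 2.3.3 and matplotlib 3.10.9 were used.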

Additional observations from a re-analysis of the deposited data

How the results depend on the processing

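Members per 10000 peaks differed between the states (mTEChi minus mTEClo) by 0.185 and kept that sign in 11 of 13 settings; with gene ends only the difference was -0.140 and without single libraries it ran from -0.694 to 1.06. With the replicate number as a block it was 0.185 (exact permutation test within numbers, p = 1; the smallest possible p is 0.50). Same-numbered libraries did not deviate together (Pearson r = -0.0198 over 14874 genes), and the numbers are only names. Members called in all libraries numbered 2 among the 10000 highest peaks (11.3% of all genes), where 2 were mTEChi-only (3.13%). With gene ends only, 2 members were called in all libraries, and without single libraries mTEChi-only members numbered 0 to 1. For the other changed settings, and for the region and start counts below, shares over all genes were not computed. With gene ends only, regions in all libraries, in 2 or more, mTEClo-only and mTEChi-only numbered 1, 5, 0 and 1. Among the 10000 highest peaks, regions in 2 or more libraries, mTEClo-only and mTEChi-only numbered 4, 0 and 1, and with summits within 75 bp mTEClo-only regions numbered 3 and mTEChi-only regions 2. Without single libraries the regions in all remaining libraries numbered 3 to 6, those in 2 or more 11 to 14, mTEClo-only 2 to 26 and mTEChi-only 4 to 34, since 1 list then suffices for a state. Of 37 related genes, those called in all libraries numbered 8 within gene intervals, 13 above the median score and 7 among the 10000 highest (11.3% of all genes). Members with a summit near a start in 3 or 4 libraries numbered 2 above the median score and 1 among the 10000 highest, and those in all libraries 1 to 3 without single libraries; these settings were added after seeing the data. The difference in peak number changed sign in 6 of 13 settings for Dnmt3a, in 3 for Tet2, in 1 each for Dnmt3b, Tet3 and Uhrf1, and in none for Tet1. A difference that fell to 0 was not counted as a change of sign. That of Tet1 was 0 among the 10000 highest peaks and 0 without mTEChi replicate 2. For Dnmt1 the difference was 0 in the main setting and ran from -2 to 2 in the others. The cause of these shifts was not tested, and unknown depth limits every count.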
